A study of Mus musculus with 9 samples.

Results

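The regulators described here are *Spi1*, *Runx1*, *Cebpa*, *Cebpb*, *Cebpd*, *Cebpe*, *Gfi1*, *Irf8* and *Csf3r*. Their rows were taken by gene symbol from the deposited count table and make up 9 of its 27179 genes. Of these, 8 encode transcription factors of the myeloid lineage, and *Csf3r* encodes the receptor for granulocyte colony-stimulating factor (G-CSF), a cell surface protein and not a transcription factor. Poly(A) RNA was sequenced from whole mandibles, teeth included, in 5 WT animals and in 4 that carry the FcγRIIB-/- label, C57BL/6 males 6 months of age in both groups. FcγRIIB is the inhibitory receptor for IgG, and mice that lack it on this background are used as a model of lupus. The methods name no Cre driver, transgene or pooled animals, and each library stands for 1 mouse.

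Myeloid cells arise in the bone marrow from progenitors in which a small set of transcription factors acts in sequence. RUNX1 and PU.1, the product of *Spi1*, act early, and C/EBPα commits progenitors to the granulocyte and monocyte branch. GFI1 and C/EBPε then drive neutrophil maturation, whereas IRF8 directs cells towards monocytes and dendritic cells. C/EBPβ and C/EBPδ are induced by cytokines and are also made outside the blood, in fat, fibroblasts and epithelium, as RUNX1 is in epithelium and skeletal tissue. A mandible holds marrow, bone, teeth, muscle and oral epithelium, so the RNA of each mouse was a mixture of all of these. In such bulk samples, fewer cells of a type and less RNA per cell cannot be told apart.

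Library totals ran from 24158960 to 26787359 counts in WT and from 21453880 to 28991631 under the FcγRIIB-/- label. *Fcgr2b*, the gene targeted in these mice, was at 20.9, 38.3, 17.04, 23.1 and 20.6 CPM (counts per 1000000 counts of the normalized library) in WT replicates 1 to 5, and at 26.5, 25.97, 26.6 and 32.1 CPM in labelled replicates 1 to 4. The groups overlapped, and the log2 fold change was 0.21 (SE 0.20, edgeR adjusted p = 0.442), or 0.46 (edgeR adjusted p = 0.0131) without WT replicate 2. The targeted gene was thus not lower under the knockout label, and every direction given here is a direction by label. Counts per gene do not show whether reads came from a deleted part. Defining genes of bone, muscle, epithelium and blood cells were detected in both groups, as the tissue label says. WT replicate 2 stood apart in lymphoid genes, with a summed level of 815.5 CPM where the other WT libraries had between 95.5 and 167 CPM. WT replicate 5 stood apart in neutrophil genes, with a summed level of 4696 CPM against 1645 to 2443 CPM in the other WT libraries. Fold changes without these libraries are given for each regulator that passed, and for any other named gene whose call ended, or whose called fold change moved by over 1.5 times on the log2 scale, when both were left out.

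Of the 9 regulators, 5 fell and 2 rose under the FcγRIIB-/- label, and 2 did not pass, where passing means a Benjamini-Hochberg adjusted p below 0.05 from the quasi-likelihood test of edgeR. The falls were steepest in the factors of neutrophil maturation, *Cebpe* and *Gfi1*, and smaller in *Csf3r*, *Irf8* and *Spi1*. *Cebpb* and *Runx1* rose, and *Cebpa* and *Cebpd* did not pass. Over all 16329 genes tested, 19.3% were called lower and 14.0% higher, 33.3% in all. Every library labelled FcγRIIB-/- was below every WT library for 4 regulators, where 17.5% of all tested genes showed this. All were above WT for 1 regulator, where the share among all tested genes was 12.1%. The log2 fold changes of the regulators lay between -4.30 and 0.63, with a median of -0.76, and the median over all tested genes was 0.01. All 9 passed the filter on low counts, but *Cebpe* and *Gfi1* reached 10 counts in all 5 WT libraries and in only 1 library labelled FcγRIIB-/-, so they were tested by virtue of their WT level.

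**Figure D1:**
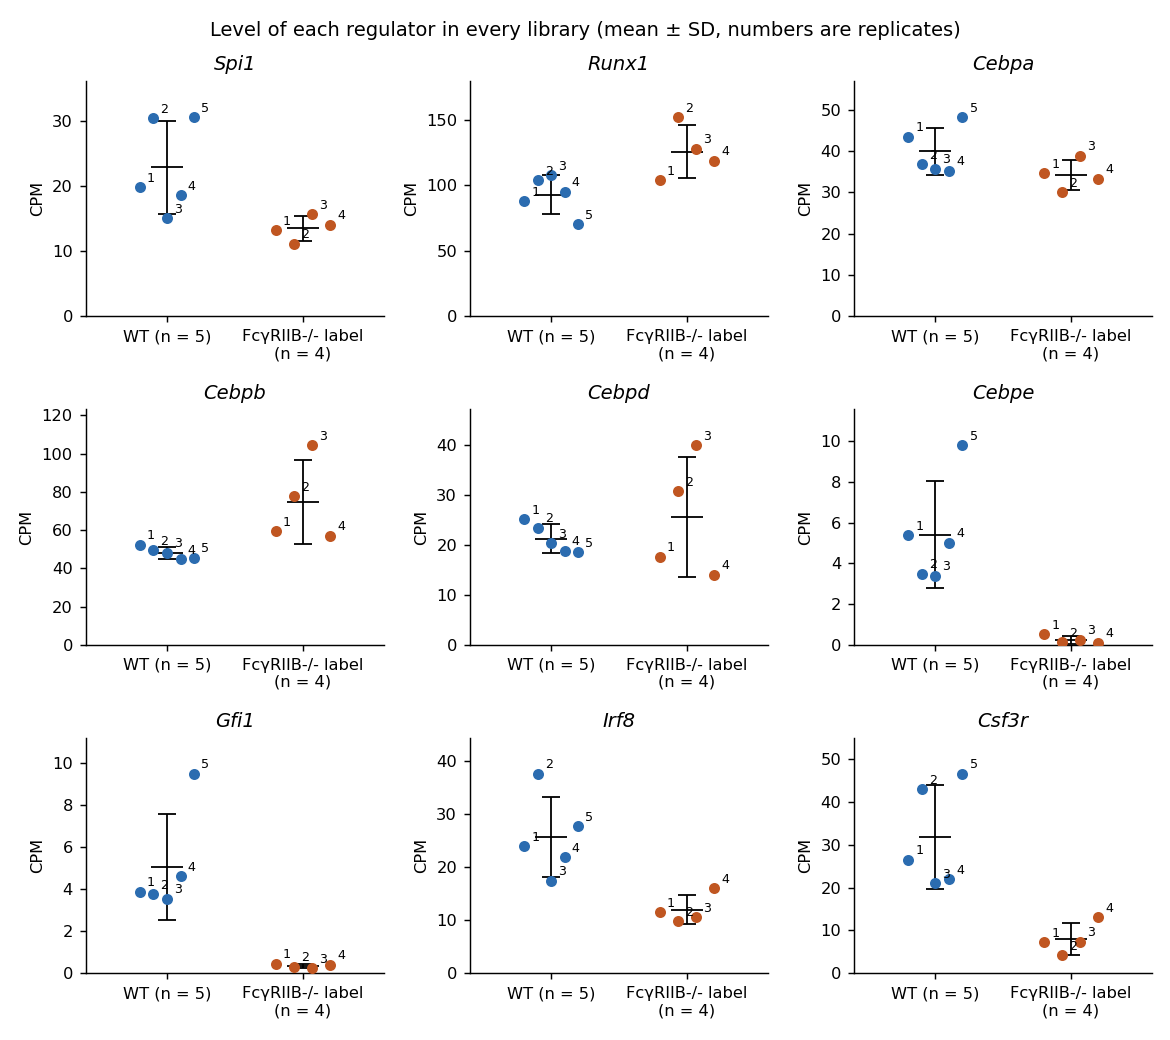
Level of each of the 9 regulators in CPM (vertical axis, from 0) in the 5 WT libraries (blue) and the 4 libraries labelled FcγRIIB-/- (orange); each point is 1 mouse with its replicate number, and black bars are mean ± SD. *Cebpe*, *Gfi1*, *Irf8* and *Csf3r* were below all WT mice in all 4 labelled mice, *Cebpb* was above in all 4, and the groups overlapped for the other genes.

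*Cebpe* encodes C/EBPε, the bZIP factor required for the last steps of granulocyte maturation and for secondary granule genes. Its gene, identifier 110794, spans 54710363 to 54712174 on chromosome 14 (mm10, as for all positions here). Counts of 149, 87, 88, 137 and 251 were found for *Cebpe* in WT replicates 1 to 5, whereas labelled replicates 1 to 4 held 15, 3, 6 and 2. The WT level of 5.42 ± 2.61 CPM (SD, n = 5) stood against 0.255 ± 0.192 CPM (SD, n = 4). WT replicate 5 was the highest library, and no labelled library came near the lowest WT library, at 3.39 CPM. The level was 19.7-fold lower, a log2 fold change of -4.30 (SE 0.49, edgeR adjusted p = 3.52e-04). Summed over the 4 labelled libraries there were only 26 counts, which put the pooled level at 0.278 CPM with an exact Poisson 95% interval from 0.182 to 0.407, against 5.03 to 5.84 in WT. These intervals cover counting error only. With WT replicates 2 and 5 both left out, the log2 fold change was -4.04.

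*Gfi1* encodes a zinc finger repressor that holds progenitors on the granulocyte path and represses monocyte genes. *Gfi1* (identifier 14581) spans 107716655 to 107725805 on chromosome 5. WT replicates 1 to 5 had 107, 94, 92, 126 and 243 counts of *Gfi1*, and the labelled libraries had 13, 7, 6 and 8. WT replicates 1 to 4 were close together, between 3.55 and 4.63 CPM, and replicate 5 was at 9.49 CPM. The labelled libraries were between 0.254 and 0.456 CPM, so the groups were far apart. The fall was 13.8-fold, a log2 fold change of -3.79 (SE 0.39, edgeR adjusted p = 2.08e-04). Leaving out WT replicates 2 and 5 gave -3.43. A called log2 fold change of -1 or below was found in 6.55% of all tested genes and in 4 of the 9 regulators. One of -3 or below, which *Cebpe* and *Gfi1* had, was found in 1.48% of all tested genes. Both genes entered the test through their WT level and were chosen with earlier results of these data known. These shares are given for scale only. *Cebpe* and *Gfi1* were by mean the lowest regulators per kilobase of transcript in WT, at 4.369 ± 2.1 and 1.77 ± 0.876 CPM per kb (SD, n = 5). In WT replicate 5, *Cebpe* was above *Cebpd* by this measure. The transcript length taken for *Cebpd* was longer than its RefSeq span, so this order is uncertain.

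*Csf3r* encodes the G-CSF receptor, which carries the main survival and growth signal of neutrophils and their precursors. *Csf3r* (identifier 12986) spans 126023441 to 126044975 on chromosome 4. Its level was 26.5, 42.9, 21.0, 21.99 and 46.5 CPM in WT replicates 1 to 5, and 7.29, 4.30, 7.41 and 13.1 CPM in the labelled replicates 1 to 4. WT replicates 2 and 5 were about level with each other and above the other WT mice, and the highest labelled library was still below the lowest WT library. The mean was 31.8 ± 12.0 CPM (SD, n = 5) in WT and 8.02 ± 3.67 CPM (SD, n = 4) in the labelled libraries. This was a 3.98-fold fall, with a log2 fold change of -1.99 (SE 0.34, edgeR adjusted p = 0.00219). Leaving out those WT mice gave a log2 fold change of -1.52 (edgeR adjusted p = 0.0049).

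The stretches before annotated starts of *Gfi1*, *Csf3r*, *Irf8* and *Runx1* are shown because these genes moved with the genotype label and their windows held letters of a motif bound by another of the regulators. RefSeq promoter windows on GRCm38, from 250 bases before to 50 bases after a start, were matched by gene symbol for 6 of the 9 regulators, which gave 9 windows. Each was searched on both strands for TTGCNNAA (C/EBP), GAGGAAG (PU.1), AATCAC (GFI1), TGTGGT (RUNX) and the IRF element, GAAA followed after any 2 bases by GAAA. The letters shown are the 250 bases before the start, 5′ to 3′ on the strand of the gene, with the match in capitals. For *Gfi1*, which had 2 windows, the stretch is chr5:107725806-107726055 on the minus strand, with a C/EBP match. The other *Gfi1* window held no match. For *Csf3r* it is chr4:126024409-126024658 on the plus strand, before a start inside the span of the gene given above, with a PU.1 match. For *Irf8*, which also had 2 windows, it is chr8:120736108-120736357 on the plus strand, with the GFI1 letters on the opposite strand. For *Runx1*, which also had 2 windows, it is chr16:92826075-92826324 on the minus strand, likewise with the GFI1 letters on the opposite strand.
Gfi1: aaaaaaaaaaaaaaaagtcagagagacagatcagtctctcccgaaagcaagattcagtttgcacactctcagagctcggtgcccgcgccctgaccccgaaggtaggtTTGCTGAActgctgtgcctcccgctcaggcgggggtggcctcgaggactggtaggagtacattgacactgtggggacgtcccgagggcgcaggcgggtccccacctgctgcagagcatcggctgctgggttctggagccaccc
Csf3r: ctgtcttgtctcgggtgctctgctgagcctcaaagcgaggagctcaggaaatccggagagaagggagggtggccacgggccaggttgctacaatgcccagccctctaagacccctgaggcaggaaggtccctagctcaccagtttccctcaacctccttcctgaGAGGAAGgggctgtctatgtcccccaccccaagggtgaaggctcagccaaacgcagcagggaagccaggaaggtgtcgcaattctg
Irf8: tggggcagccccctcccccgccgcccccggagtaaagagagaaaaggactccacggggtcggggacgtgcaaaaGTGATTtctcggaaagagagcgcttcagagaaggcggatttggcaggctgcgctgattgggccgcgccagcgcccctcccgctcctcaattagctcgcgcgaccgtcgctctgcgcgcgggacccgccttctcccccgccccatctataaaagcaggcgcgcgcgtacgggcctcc
Runx1: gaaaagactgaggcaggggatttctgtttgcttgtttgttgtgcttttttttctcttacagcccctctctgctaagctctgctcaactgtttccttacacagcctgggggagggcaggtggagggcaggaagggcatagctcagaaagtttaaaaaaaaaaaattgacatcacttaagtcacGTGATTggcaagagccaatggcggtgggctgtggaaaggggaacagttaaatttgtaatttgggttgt
The C/EBP letters were found in 1 of the 9 windows and in 10.8% of 32817 promoter windows of the same length. The PU.1 letters were likewise in 1 window, against 13.6% of all windows. GFI1 letters were in 3 windows, 1 of *Irf8* and both of *Runx1*, against 10.4% of all. The RUNX letters were in 1 window, that of the *Runx1* start shown but after the start, against 16.8% of all. No window of these regulators held the IRF letters, which 3.43% of all windows held. A match is a description of letters in the window and not a binding site. No matches of different motifs overlapped.

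*Irf8* encodes the interferon regulatory factor that sets monocyte and dendritic cell fate. *Irf8* (identifier 15900) spans 120736358 to 120756694 on chromosome 8. *Irf8* was at 23.9, 37.6, 17.5, 21.9 and 27.7 CPM in WT replicates 1 to 5, and at 11.6, 9.84, 10.6 and 16.0 CPM in the labelled replicates 1 to 4. WT replicate 3 was only just above labelled replicate 4, and the groups did not overlap. The log2 fold change was -1.10 (SE 0.22, edgeR adjusted p = 0.00423), a 2.14-fold fall. *Irf8* is also made by B cells, and WT replicate 2, the library with the highest lymphoid genes, was the highest. Leaving out WT replicates 2 and 5 gave a log2 fold change of -0.79 (edgeR adjusted p = 0.0108). The part of lymphoid cells in the *Irf8* level was not tested.

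*Spi1* encodes PU.1, the ETS family factor needed for all myeloid cells and also for B cells and osteoclasts. *Spi1* (identifier 20375) spans 91082374 to 91115759 on chromosome 2. Its WT level was 19.9, 30.5, 15.1, 18.7 and 30.7 CPM in replicates 1 to 5, and the labelled libraries were at 13.3, 11.2, 15.8 and 14.1 CPM. WT replicate 3 fell inside the range of the labelled libraries, and WT replicates 2 and 5 were well above the other WT mice. The log2 fold change of -0.76 (SE 0.21, edgeR adjusted p = 0.0208) was a 1.69-fold fall. This call rested on few libraries. Without WT replicates 2 and 5 the log2 fold change was -0.37 (edgeR adjusted p = 0.0841), and without labelled replicate 2 it was -0.67 (edgeR adjusted p = 0.0584).

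*Cebpb* encodes C/EBPβ, which acts in macrophages and in granulocyte production under stress, and also in fat and stromal cells. *Cebpb* (identifier 12608) spans 167688915 to 167690432 on chromosome 2. The WT libraries were close together at 52.5, 49.6, 48.1, 44.7 and 45.6 CPM. The labelled libraries were all higher but spread widely, at 59.4, 77.6, 104 and 57.0 CPM in replicates 1 to 4. The SD was 3.12 CPM in WT and 21.8 CPM in the labelled libraries. *Cebpb* rose 1.55-fold, a log2 fold change of 0.63 (SE 0.16, edgeR adjusted p = 0.0118). Without labelled replicate 3, the highest library, it was 0.43 (edgeR adjusted p = 0.0171), and with WT replicates 2 and 5 both left out it was 0.65 (edgeR adjusted p = 0.0371).

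*Runx1* encodes the runt domain factor that founds definitive blood cells and is also active in epithelium and cartilage. *Runx1* (identifier 12394) spans 92601466 to 92826074 on chromosome 16. WT replicates 1 to 5 were at 87.9, 104, 108, 95.3 and 70.3 CPM, and the labelled replicates 1 to 4 at 104, 152, 128 and 119 CPM. Labelled replicate 1 was level with WT replicate 2 and below WT replicate 3, so the groups overlapped. *Runx1* had a log2 fold change of 0.44 (SE 0.14, edgeR adjusted p = 0.0313), a 1.35-fold rise. The call was lost without labelled replicate 2 (0.33, adjusted p = 0.091), labelled replicate 3 (0.43, adjusted p = 0.0661) or WT replicate 1 (0.43, adjusted p = 0.0513), all edgeR values. Leaving out WT replicates 2 and 5 gave 0.40 (edgeR adjusted p = 0.0501).

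*Cebpa* encodes C/EBPα, the factor at the head of the granulocyte and monocyte branch, which fat and liver cells also make. *Cebpa* (identifier 12606) spans 35119293 to 35121928 on chromosome 7. *Cebpa* was at 43.5, 36.8, 35.7, 35.2 and 48.2 CPM in WT and at 34.6, 30.1, 38.9 and 33.2 CPM in the labelled libraries. The ranges overlapped, and the log2 fold change of -0.22 (SE 0.11, edgeR adjusted p = 0.148) did not pass. *Cebpd*, on chromosome 16 from 15887286 to 15889545 (identifier 12609), encodes the inducible C/EBPδ. Its WT level was between 18.6 and 25.2 CPM, and the labelled libraries were at 17.7, 30.8, 39.9 and 14.0 CPM, on both sides of WT. The log2 fold change of *Cebpd* was 0.27 (SE 0.26, edgeR adjusted p = 0.461), and it turned to -0.031 without labelled replicate 3. Labelled replicate 3 was the highest library for both *Cebpb* and *Cebpd*, and labelled replicate 2 the next.

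**Figure D2:**
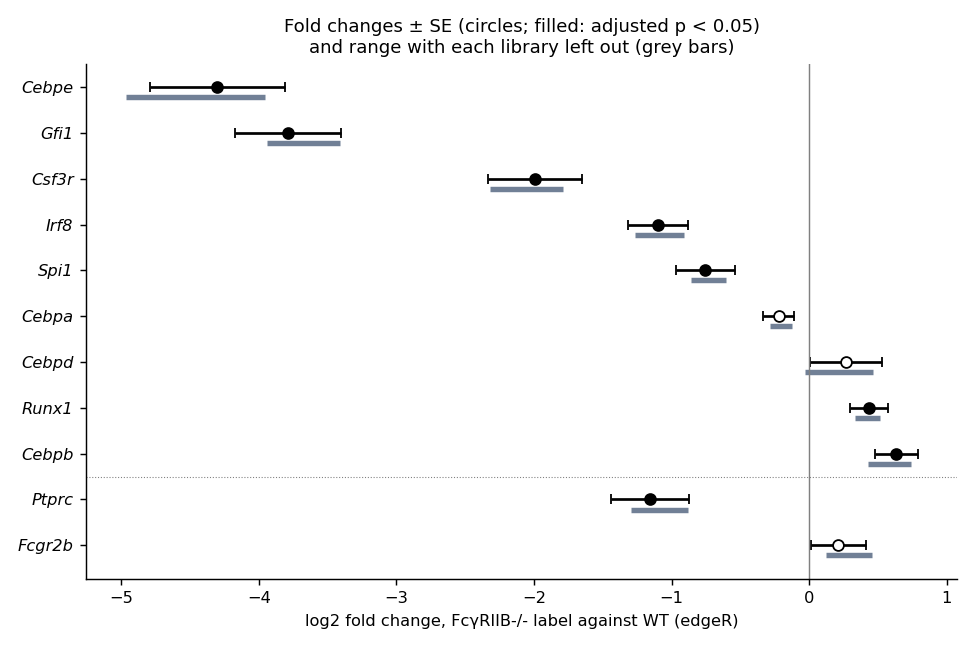
Log2 fold change of the libraries labelled FcγRIIB-/- against WT (horizontal axis) for the 9 regulators and, under the dotted line, *Ptprc* and *Fcgr2b*; circles with bars are the edgeR estimate ± standard error, filled where the adjusted p was under 0.05, and grey bars span the fits that each left out 1 of the 9 libraries. The bars of *Cebpe* (-4.97 to -3.95) and *Gfi1* (-3.94 to -3.41) stayed far from 0, and that of *Cebpd* crossed 0.

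Parts of the exons of 5 regulators overlap genes on the opposite strand in GENCODE, and the strand setting of the counting is not given in the sources used here. The largest of these overlaps was 562 bases, between *Cebpd* and *Spidr*. *Cebpb* overlaps *Tmem189* by 312 bases. Neither neighbour passed in edgeR's test, with log2 fold changes of -0.24 (adjusted p = 0.118) for *Spidr* and -0.04 (adjusted p = 0.805) for *Tmem189*, and their part in the levels of *Cebpd* and *Cebpb* was not tested.

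Levels of different genes were compared per kilobase of the longest coding transcript. For *Cebpd* this GENCODE transcript had 3746 bases, longer than the RefSeq span of the gene given above. A shorter length would raise *Cebpd*, so its place in the orders below is uncertain. In WT, *Cebpb* led at 32.0 ± 2.08 CPM per kb (SD, n = 5), above *Runx1* and *Cebpa* in every library. *Runx1* at 15.9 ± 2.53 and *Cebpa* at 15.2 ± 2.18 CPM per kb did not differ beyond their spread. *Spi1* (11.3), *Csf3r* (9.13) and *Irf8* (9.03) followed with overlapping ranges, then *Cebpd* (5.68), *Cebpe* and *Gfi1*, all as WT means in CPM per kb. In the labelled libraries the order by mean was *Cebpb*, *Runx1*, *Cebpa*, *Cebpd*, *Spi1*, *Irf8*, *Csf3r*, *Cebpe* and *Gfi1*. *Cebpd* and *Spi1* overlapped, with *Cebpd* above in 2 of the 4 libraries at the length of 3746 bases used for it. *Cebpb* was at 49.6 ± 14.5 CPM per kb there (SD, n = 4), and the ranges of *Cebpb*, *Runx1* and *Cebpa* did not meet. *Csf3r* was at 2.30 ± 1.05 CPM per kb there, below *Irf8* in all 4 libraries. Its place above *Irf8* by the WT mean rested on WT replicate 5, without which *Csf3r* was at 8.07 and *Irf8* at 8.86 CPM per kb. *Cebpe* (0.205 CPM per kb) and *Gfi1* (0.126 CPM per kb) overlapped at the bottom.

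Ratios between genes were taken within each library. Each regulator was set against *Ptprc*, which encodes CD45 on all leukocytes, and against *Spi1*, as differences of log2 CPM with a prior count of 2, which gave 17 log2 ratios tested by two-sided exact permutation with p-values not adjusted for their number. The smallest p that the 126 splits of 5 and 4 mice allow is 0.00794. *Ptprc* itself fell from 70.1 ± 30.4 CPM (SD, n = 5) to 31.4 ± 6.98 CPM (SD, n = 4), a log2 fold change of -1.16 (SE 0.28, edgeR adjusted p = 0.011). With WT replicates 2 and 5 left out it was -0.65 (edgeR adjusted p = 0.017).

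Because *Ptprc* itself fell, the median gene was 1.09 higher relative to it on the log2 scale, and its ratio was higher with no overlap in 52.4% of all tested genes and lower with no overlap in 1.16%. Relative to *Ptprc*, *Cebpe* was lower by a log2 difference of -3.01 (exact permutation p = 0.0159) and *Gfi1* by -2.38 (exact permutation p = 0.0159), with no overlap between the groups. From counts plus 0.5 the *Cebpe* difference was -3.33 (exact permutation p = 0.00794). *Cebpe* and *Gfi1* thus fell more than the leukocyte gene did. *Csf3r* was lower relative to *Ptprc* by -0.92 (exact permutation p = 0.0159), with labelled replicate 4 inside the WT range. The log2 ratio of *Irf8* to *Ptprc* was -1.39 ± 0.211 in WT (SD, n = 5) and -1.38 ± 0.362 in the labelled libraries (SD, n = 4), a difference of 0.01 (exact permutation p = 0.96). *Spi1* was higher relative to *Ptprc*, by 0.38 (exact permutation p = 0.00794), with all 4 labelled libraries above all WT libraries. The ratio to *Ptprc* was also higher for *Cebpb* (1.67), *Runx1* (1.52) and *Cebpa* (0.87), each with no overlap between the groups. *Cebpd* was higher relative to *Ptprc* by 1.235 with overlapping groups (exact permutation p = 0.032). *Cebpb*, *Runx1* and *Cebpd* lay above the median of all genes in this ratio, and *Cebpa* and *Spi1* below it.

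Relative to *Spi1*, the median gene was 0.71 higher, 28.6% of all tested genes were higher with no overlap and 2.58% lower. Against *Spi1*, *Cebpe* was lower by -3.38, *Gfi1* by -2.76 and *Csf3r* by -1.30, and for each the labelled libraries were below all WT libraries (exact permutation p = 0.00794 for all 3). *Cebpb* was higher relative to *Spi1* by 1.30 (exact permutation p = 0.00794) and *Runx1* by 1.14 (exact permutation p = 0.0159). The ratio of *Irf8* to *Spi1* differed by -0.36 with overlapping groups (exact permutation p = 0.0556). The groups also overlapped for *Cebpa* (0.49, exact permutation p = 0.0476) and *Cebpd* (0.86, exact permutation p = 0.111) relative to *Spi1*. Of the 9 ratios to *Ptprc*, 2 were lower, 4 higher and 3 overlapped, and of the 8 ratios to *Spi1*, 3 were lower, 2 higher and 3 overlapped.

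**Figure D3:**
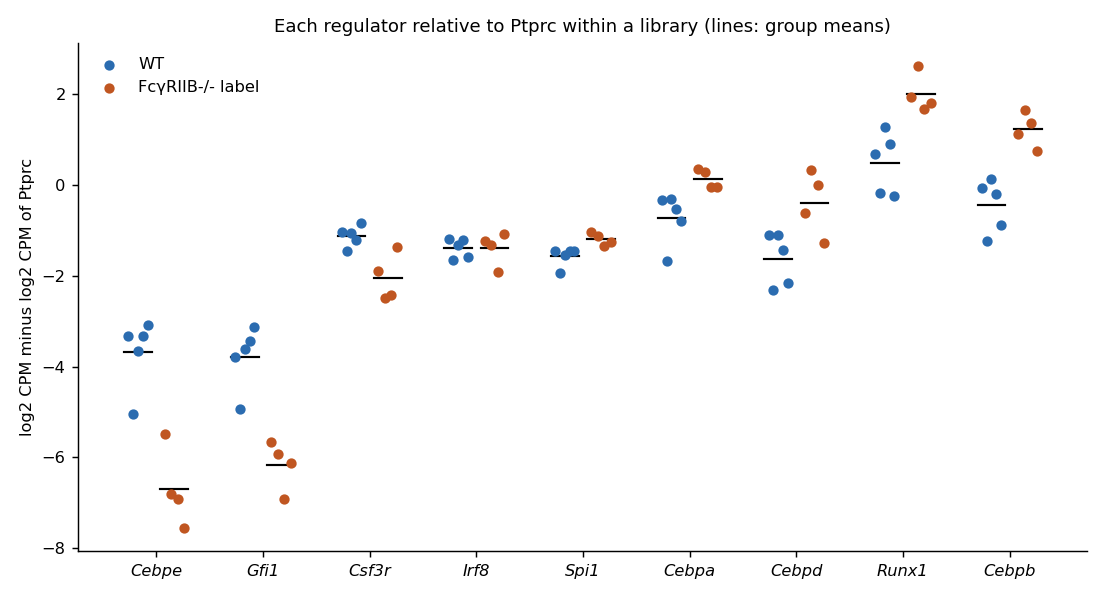
Log2 CPM of each regulator minus log2 CPM of *Ptprc* in the same library (vertical axis) for WT (blue, n = 5) and libraries labelled FcγRIIB-/- (orange, n = 4); each point is 1 library and lines are group means. *Cebpe* and *Gfi1* lay lower in all labelled libraries, *Irf8* overlapped, and *Spi1*, *Cebpa*, *Runx1* and *Cebpb* lay higher.

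A list of relatives of these regulators in the C/EBP, ETS, GFI, IRF and RUNX families gave 4 lower and 1 higher gene among 16 tested. It also held *Cbfb*, a partner and not a member of the RUNX family, and *Cebpz*, a C/EBP relative by name only. The median log2 fold change of the list was -0.06. Over all tested genes, 19.3% were called lower and 14.0% higher, and the counts of this and the later lists are to be read beside these shares. *Gfi1b*, the paralog of *Gfi1* that acts in red cell and platelet precursors, fell most, from 6.40 to 0.478 CPM (log2 fold change -3.78, edgeR adjusted p = 8.33e-04). *Spib*, a B cell and plasmacytoid dendritic cell relative of *Spi1*, followed at -2.39 (edgeR adjusted p = 0.00289). *Irf3* rose by a log2 fold change of 0.33 (edgeR adjusted p = 0.00609), and *Irf7* at 0.41 did not pass (edgeR adjusted p = 0.103), but passed at 0.56 (edgeR adjusted p = 0.0255) without WT replicate 5. Neither *Cebpg* nor *Cebpz* passed.

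Among 31 other transcription factors of blood progenitors and myeloid cells, 13 fell and 2 rose, with a median log2 fold change of -0.24. The largest falls were those of *Klf1* (-4.14) and *Gata1* (-3.76), both factors of red cell precursors. The 2 called higher were *Bcl6* (0.36, edgeR adjusted p = 0.0394) and *Tcf4* (0.29, edgeR adjusted p = 0.0195). Neither call held with WT replicates 2 and 5 left out, at 0.29 (edgeR adjusted p = 0.141) and 0.24 (edgeR adjusted p = 0.0604), and that of *Bcl6* was lost in 6 of the 9 fits that left out 1 library. *Egr1* (1.27, edgeR adjusted p = 0.105) and *Batf3* (0.76, edgeR adjusted p = 0.0686) had the highest log2 fold changes and did not pass. The *Egr1* value came from labelled replicate 2, without which it was 0.099 (edgeR adjusted p = 0.821). With WT replicates 2 and 5 left out, 8 of these factors were called lower.

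Of 21 tested cytokines, receptors and signalling proteins of myelopoiesis, 9 fell and 1 rose, with a median log2 fold change of -0.29. *Cxcr2*, the chemokine receptor of mature neutrophils, fell from 9.57 to 1.33 CPM (log2 fold change -2.82, edgeR adjusted p = 0.00144), and *Flt3*, a receptor of early progenitors, by -1.30 (adjusted p = 0.0106). *Kitl*, the ligand of the KIT receptor, was called higher at 0.25 (edgeR adjusted p = 0.0136), a call lost with WT replicates 2 and 5 left out (0.25, edgeR adjusted p = 0.0512), and *Flt3l* at 0.42 did not pass (edgeR adjusted p = 0.0859). *Csf3*, chosen after its value was seen because it encodes the ligand of the G-CSF receptor, was at 3.60 CPM in WT and 2.18 CPM in the labelled libraries and did not pass (log2 fold change -0.71, edgeR adjusted p = 0.155).

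Neutrophil genes fell as a whole list. All 24 listed genes of neutrophils and their precursors passed as lower, where 19.3% of all tested genes did. The list was chosen with earlier results of these data known, so this is a description and not independent support. The median log2 fold change of these genes was -3.02. Their summed level was between 1645 and 4696 CPM in WT and between 274 and 643 CPM in the labelled libraries. *Itgb2l* (-4.59) and *Cd177* (-4.54), surface genes of maturing neutrophils, had the largest falls. *Ltb4r1* (-0.74) and *Itgb2* (-1.26), which other leukocytes share, had the smallest, and *Itgb2* was at -0.77 (edgeR adjusted p = 0.0095) with WT replicates 2 and 5 left out. With WT replicates 2 and 5 left out, 24 genes were called lower. The falls of *Cebpe* and *Gfi1*, at -4.30 and -3.79, lay within the range of this list.

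Genes of monocytes, macrophages and dendritic cells were divided. Of 19 tested, 11 fell, 1 rose and 7 did not pass, with a median log2 fold change of -0.73. *Ly6c2*, a marker of inflammatory monocytes and their precursors, fell most (-3.82, edgeR adjusted p = 3.55e-04), followed by *Siglech* (-1.67), a marker of plasmacytoid dendritic cells. *Bst2* rose (0.45, edgeR adjusted p = 0.00383), and *Fcgr1* at 0.38 did not pass (adjusted p = 0.209). The summed level was between 706 and 1235 CPM in WT and between 508 and 674 CPM in the labelled libraries. With WT replicates 2 and 5 left out, 8 genes were called lower.

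**Figure D4:**
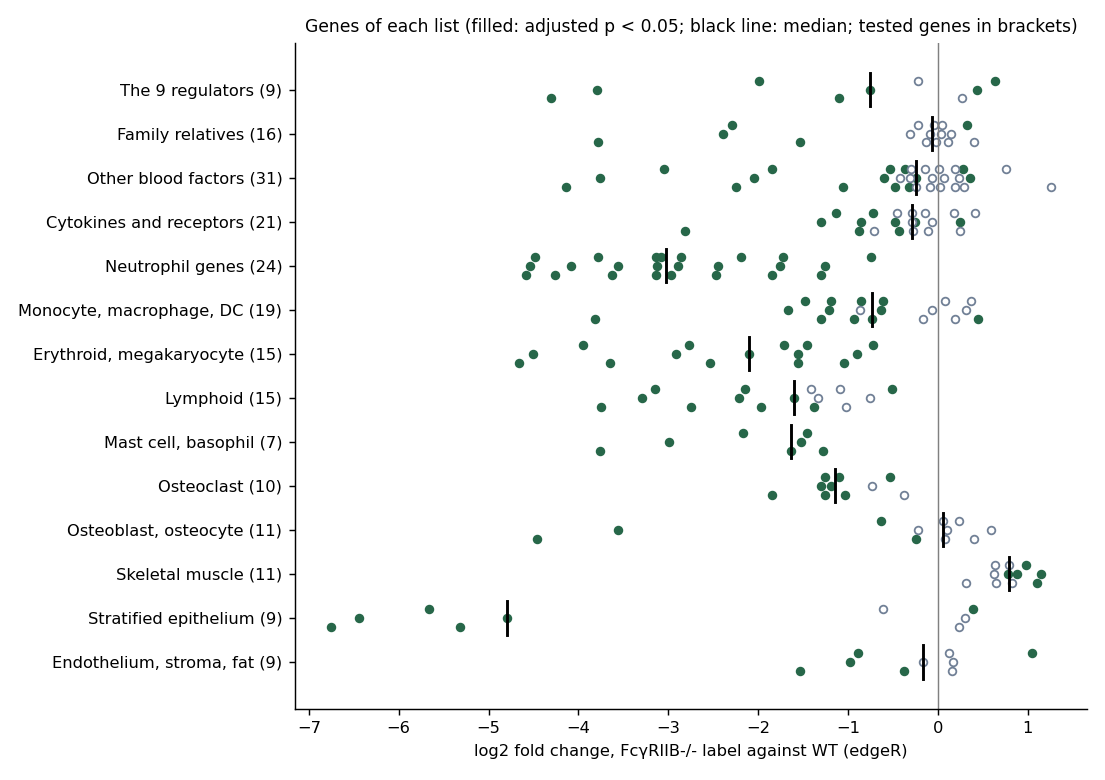
Log2 fold change (horizontal axis) of the tested genes of each list in the libraries labelled FcγRIIB-/- against WT; each circle is 1 gene, filled where the edgeR adjusted p was under 0.05, and black lines are list medians. All 24 neutrophil genes were lower, with a median of -3.02, while the 9 regulators ran from -4.30 to 0.63.

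Markers of the other cell types in the mandible moved with the labels to differing extents. Over all tested genes, 19.3% were called lower and 14.0% higher. All 15 erythroid and megakaryocyte genes fell, with a median log2 fold change of -2.098, from *Slc4a1* (-4.66) and *Rhag* (-4.51) to *Vwf* (-0.90) and *Gp1bb* (-0.72). Their summed level was between 2013 and 2421 CPM in WT and between 266 and 625 CPM in the labelled libraries. All 7 tested mast cell and basophil genes fell, led by *Fcer1a* (-3.75) and *Mcpt8* (-2.99) and with *Mcpt4* (-1.45) and *Cma1* (-1.27) least. Mean levels were low for *Fcer1a*, 0.928 CPM in WT and 0.0629 CPM in the labelled libraries, and for *Mcpt8*, 3.05 and 0.374 CPM. Of 15 lymphoid genes, 10 fell, among them *Jchain* (-3.75) and *Rag1* (-3.29), and 5 did not pass. *Trac* (-0.75, edgeR adjusted p = 0.334) was among the latter, and *Ebf1* (-0.51) fell least. The summed lymphoid level was between 95.5 and 815.5 CPM in WT and between 34.8 and 55.9 CPM in the labelled libraries. Most of the *Jchain* fold came from WT replicate 2, without which it was -1.999 (edgeR adjusted p = 0.00231), and *Trac* was then at 0.14 (edgeR adjusted p = 0.74). With WT replicates 2 and 5 both left out, *Jchain* was at -1.57 (edgeR adjusted p = 6.51e-04). Without WT replicate 2, 9 lymphoid genes were called lower, as they were with WT replicates 2 and 5 left out.

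In bone and soft tissue, 8 of 10 osteoclast genes fell, led by *Mmp9* (-1.84), which is also on the neutrophil list, and *Itgb3* (-1.30). *Nfatc1* (-0.53, and -0.32 with WT replicates 2 and 5 left out) fell less, and *Tnfrsf11a* (-0.38) did not pass. *Spi1* acts in this lineage too, and the summed level of the list was between 998 and 1422 CPM in WT and between 364 and 615 CPM in the labelled libraries. Of 11 osteoblast and osteocyte genes 4 fell, led by *Mepe* (-4.46) and *Sost* (-3.56), and the median log2 fold change was 0.06. The other 2 called lower were *Ibsp* (-0.64) and *Sp7* (-0.25). The folds of *Mepe* and *Sost* came largely from WT replicate 5, without which they were -2.03 (edgeR adjusted p = 0.0122) and -1.06 (edgeR adjusted p = 0.0233). With WT replicates 2 and 5 both left out they were -1.89 (edgeR adjusted p = 0.023) and -1.13 (edgeR adjusted p = 0.027). Only 1 osteoblast gene was called lower without labelled replicate 1, 3 or 4, and with WT replicates 2 and 5 left out *Ibsp* (-0.25, edgeR adjusted p = 0.179) and *Sp7* (-0.22, edgeR adjusted p = 0.0841) did not pass. *Bglap* (0.60) and *Bglap2* (0.41) did not pass and share sequence, so their counts are uncertain. Skeletal muscle genes had 5 of 11 called higher, led by *Tnnt3* (1.15) and *Mylpf* (1.10), with *Myh4* (0.31) and *Myog* (0.63), which did not pass, lowest. The count was 8 without WT replicate 1, 3 without WT replicate 3, WT replicate 5 or labelled replicate 4, and 2 without labelled replicate 1. Their summed level was between 7066 and 16300 CPM in WT and between 16520 and 29030 CPM in the labelled libraries.

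Of 9 genes of stratified epithelium, the markers of keratinized layers *Lor* (-6.76) and *Krt1* (-6.44) fell most among 5 lower genes, while the basal keratin *Krt5* was called higher (0.39, edgeR adjusted p = 0.0356). That call was lost in 5 of the 9 fits that left out 1 library and with WT replicates 2 and 5 left out (0.36, edgeR adjusted p = 0.061). *Trp63* (0.31) did not pass. *Krt4* (-5.665) and *Krt13* (-5.32), which are not markers of keratinized layers, were also among the 5 lower genes. Their means went from 2796 to 55.1 CPM and from 3604 to 90.1 CPM. The summed epithelial level was between 5640 and 20050 CPM in WT, highest in WT replicate 5, and between 4489 and 5684 CPM in the labelled libraries. Of 9 endothelial, stromal and fat genes 4 fell, led by *Adipoq* (-1.54) and *Col3a1* (-0.98), and *Fabp4* rose (1.05), while *Pecam1* (0.17) did not pass. *Cebpb*, *Cebpd*, *Cebpa* and *Runx1* are made in several of these tissues. The part of muscle, epithelium, fat and stroma in the levels of the regulators was not tested.

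For each regulator the genes with the most similar profile were sought by Pearson correlation of log2 CPM over the 9 libraries, among 16320 other tested genes. These values share the separation of the groups and are a description. *Csf3r* was closest to *Fermt3* (r = 0.998) and *Fcer1g* (r = 0.992), genes of blood cells. *Spi1* was closest to *Lcp1* (r = 0.986) and *Itgb2* (r = 0.986), which are pan-leukocyte genes, and *Cebpe* to *Rab44* (r = 0.991) and *Trem3* (r = 0.991). *Gfi1* was closest to *Lce1i* (r = 0.993), a gene of keratinized epithelium, and *Cpd* (r = 0.992). *Irf8* was closest to *Kif21b* (r = 0.993) and *Map4k1* (r = 0.988). The regulators that rose had other neighbours, *Gadd45g* (r = 0.985) and *Zfp983* (r = 0.979) for *Cebpb*, and *Tent5a* (r = 0.981) and *Lama3* (r = 0.979) for *Runx1*. *Cebpa* was closest to *Tspo* (r = 0.954) and *Rgs20* (r = 0.932), and *Cebpd* to *Naa30* (r = 0.96) and *Ddit4* (r = 0.954).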

How the data were processed

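Whole mandibles with teeth from 5 WT and 4 FcγRIIB-/- labelled mice were profiled by poly(A) RNA-seq on directional libraries. According to the processing notes, the authors used Trim Galore for trimming, HISAT 02.1.0 for alignment to the mm10 genome and featureCounts for counting, and they deposited raw counts per gene. The annotation, strand setting and handling of multi-mapping reads are not given in the sources used here. The table held 1 column that matches no listed sample, which was not used, and 1030 rows without a symbol, which were kept under their gene identifier and hold about 0.1% of the counts.

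Counts were analysed in R 4.3.3 with edgeR 4.0.16: filterByExpr (minimum count 10), scaling by TMM, a quasi-likelihood fit with genotype label as the sole term, and Benjamini-Hochberg adjustment over all 16329 genes. Standard errors (SE) were obtained as the size of the log2 fold change divided by the root of its F value. CPM are per 1000000 counts of the TMM-scaled library, and log2 CPM used a prior count of 2. Ratios within a library were compared by exact permutation. DESeq2 1.42.0, other scalings and filters, a replicate block and omission of each library were alternatives. The fit was tested on simulated data in which 200 of 16329 genes were changed by 1 on the log2 scale. There edgeR recovered 72.5% of the changed genes, and 3.33% of its calls were unchanged genes. For DESeq2 these shares were 82.5% and 19.12%. Coordinates are RefSeq for GRCm38 (mm10) and transcript lengths are GENCODE M21. Same-group libraries were checked for near-identical counts, and none were. The labels do not name litters or cages, and p-values measure the spread between mice.

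Named were the 9 regulators, *Fcgr2b*, *Ptprc*, the 2 genes with the lowest and the 2 with the highest log2 fold change of each list, list genes that passed against the direction of their list, and the 2 genes most correlated with each regulator. Further list genes, such as *Csf3*, *Krt4* and *Krt13*, were named after their values were seen. The regulators and the lists were chosen with earlier results of these data known. The study itself used DESeq2.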

Additional observations from a re-analysis of the deposited data

Results flagged for a closer look

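Within each group, a library was singled out when its gap to the nearest other library was a large share of the range of the group (Dixon's criterion at 95%). This was applied to the regulators, *Fcgr2b* and *Ptprc*, to the ratios and to the summed lists, 84 groups of values in all, of which 9 gave a library that stood apart. Chance marks about 1 in 20 groups.

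*Gfi1* was at 9.49 CPM in WT replicate 5, where the next WT library was at 4.63 CPM, and the summed neutrophil genes were at 4696 CPM in the same library, where the next was at 2443 CPM. The summed endothelial, stromal and fat genes were also highest there, at 18790 CPM against 14070 CPM in the next WT library. The log2 ratio of *Irf8* to *Spi1* was lowest in that library, at -0.15, with the other WT libraries between 0.21 and 0.30.

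WT replicate 2 had 815.5 CPM of summed lymphoid genes, where the next WT library had 167 CPM. The log2 ratio of *Spi1* to *Ptprc* was -1.94 in that library and between -1.54 and -1.44 in the other WT libraries. *Fcgr2b* was at 38.3 CPM there, where the next WT library was at 23.1 CPM. Among the libraries labelled FcγRIIB-/-, *Fcgr2b* was highest in replicate 4, at 32.1 CPM against 25.97 to 26.6 CPM in the others. The log2 ratio of *Runx1* to *Spi1* was highest in labelled replicate 2, at 3.76, and between 2.96 and 3.07 in the other labelled libraries.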

How the results depend on the processing

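The directions of *Cebpe*, *Gfi1*, *Csf3r*, *Irf8* and *Cebpb* and their side of the threshold held under every alternative that gave a value. A minimum of 10 counts in every library removed *Cebpe* and *Gfi1* from the test, by its construction, and left 3 regulators called lower. With each library left out in turn, 4 to 5 regulators were called lower and 1 to 2 higher. These fits put *Spi1* between -0.86 and -0.61, *Runx1* between 0.33 and 0.52 and *Cebpd* between -0.031 and 0.47 on the log2 fold change scale, and called 2521 to 2771 genes lower and 1781 to 2292 higher. Leaving out WT replicates 2 and 5 together, chosen after seeing the data, gave 2066 lower and 1479 higher genes, 1 regulator called higher, and log2 fold changes of -0.37 for *Spi1* and 0.40 for *Runx1*, neither past the threshold, with fewer mice by construction.

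With each library left out, the difference in log2 ratio to *Ptprc* was between 0.63 and 0.97 for *Cebpa*, 0.996 and 1.53 for *Cebpd*, -0.088 and 0.19 for *Irf8*, 1.31 and 1.72 for *Runx1*, and -1.14 and -0.77 for *Csf3r*. To *Spi1*, it was between 0.35 and 0.59 for *Cebpa*, -0.49 and -0.24 for *Irf8*, and 0.93 and 1.34 for *Runx1*. Each of these ratios crossed the threshold of 0.05 or, for *Irf8* to *Ptprc*, changed sign in at least 1 of the 9 fits, where fewer splits also raise the smallest p.

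Same-numbered libraries of the 2 groups had correlations of deviations between -0.11 and 0.10, and differently numbered libraries between -0.21 and 0.15. These values gave no sign that the numbers pair the mice, but so few pairs cannot exclude it. With the replicate block, which leaves WT replicate 5 without a partner, 2410 genes were called lower and 1594 higher, and *Spi1* had a log2 fold change of -0.59 and did not pass. *Ptprc* under the block was at -0.98 (edgeR adjusted p = 0.0545). Muscle genes called higher numbered 5 as reported, 8 with DESeq2, 10 with the block, 3 without WT replicates 2 and 5 and 2 to 8 with each library left out, and osteoblast genes called lower numbered 2 instead of 4 with DESeq2 and without those mice, and 1 to 4 with each library left out. With the block, *Bcl6*, *Tcf4* and *Kitl* did not pass. The cause of these changes was not tested. Low counts limit *Cebpe* and *Gfi1* in the labelled libraries, and list genes that were as low there, such as *Fcer1a*.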
